A study of Mus musculus with 12 samples.

Results

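Hepatokines are proteins that the liver secretes into the blood and that act on other tissues or on the liver itself. Transcripts of 9 such proteins were listed by name, and 8 of them had a named probe set on the arrays, out of 15780 named genes in all: Angptl4, Angptl6, Ahsg, Fetub, Lect2, Rbp4, Fgl1 and Hamp. The other listed gene is not analysed here. All 8 reached the signal that a gene needed to be tested, a mean of 5.57 on the log2 scale over the 12 arrays, as did 9496 genes in total. CNOT6L is one of the deadenylases of CCR4-NOT, the complex that shortens the poly(A) tails of mRNAs. RNA bound to it was precipitated from primary hepatocytes with an antibody against CNOT6L and set beside the input RNA of the same cells (RIP-chip). The 4 groups had 3 arrays each: wild-type precipitates (WT IP), Cnot6l knockout precipitates (KO IP), Cnot6l knockout inputs (KO input) and wild-type inputs (WT input). Hepatocytes of both genotypes came from male C57BL/6J mice aged 8 weeks, and the labels name no treatment. The knockout cells lack the antibody's target and were the study's negative control, so KO IP measures what was recovered without CNOT6L.

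The listed proteins fall into a few families. Angptl4 and Angptl6 are angiopoietin-like proteins: Angptl4 inhibits lipoprotein lipase and is induced by fasting, and Angptl6 (angiopoietin-related growth factor) opposes obesity and insulin resistance in mice. Ahsg (fetuin-A) and Fetub (fetuin-B) are secreted members of the cystatin superfamily: fetuin-A binds calcium phosphate and inhibits the insulin receptor, and fetuin-B inhibits ovastacin and so keeps the egg coat open to sperm. Rbp4 carries retinol in plasma together with transthyretin. Hamp encodes hepcidin, which closes the iron exporter ferroportin and is induced through BMP and SMAD signalling when iron is plentiful and through IL-6 and STAT3 in inflammation. Lect2 is a chemotactic factor that binds the receptor MET, and Fgl1 is a fibrinogen-like hepatocyte protein that binds LAG3.

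Promoter sequence is shown for the genes that stand in a pair beside a relative, since the pairs are compared below. Bases before the start are not part of the transcript, so they do not show whether probes of a pair share targets. Mice carry a second hepcidin gene, Hamp2, on chromosome 7 beside Hamp, and the fetuin genes Ahsg and Fetub lie side by side on chromosome 16. In the RefSeq annotation each pair has 1 annotated gene between its members, and 0 of these are protein coding. The 150 bases before the start of each gene, in RefSeq sequence of the GRCm38.p6 assembly, are printed 5′ to 3′ on the gene's own strand. The windows are chr7:30944030-30944179 on the minus strand for Hamp, chr7:30924182-30924331 on the minus strand for Hamp2, chr16:22891865-22892014 on the plus strand for Ahsg and chr16:22918232-22918381 on the plus strand for Fetub. Capitals mark GGCGCC, the core of the BMP response element, and matches to the STAT motif TTCNNNGAA in the hepcidin genes. In the fetuin genes they mark CTGTTTGCAAG, the longest run that both windows share.
Hamp: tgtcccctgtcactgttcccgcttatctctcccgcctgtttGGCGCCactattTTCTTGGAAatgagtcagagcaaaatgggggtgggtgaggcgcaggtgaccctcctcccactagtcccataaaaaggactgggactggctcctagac
Hamp2: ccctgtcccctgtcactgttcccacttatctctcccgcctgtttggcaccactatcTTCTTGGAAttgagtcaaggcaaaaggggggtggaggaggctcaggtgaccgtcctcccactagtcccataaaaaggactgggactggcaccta
Ahsg: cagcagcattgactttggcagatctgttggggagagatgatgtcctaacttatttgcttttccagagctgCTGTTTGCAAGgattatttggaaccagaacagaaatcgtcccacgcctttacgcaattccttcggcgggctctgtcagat
Fetub: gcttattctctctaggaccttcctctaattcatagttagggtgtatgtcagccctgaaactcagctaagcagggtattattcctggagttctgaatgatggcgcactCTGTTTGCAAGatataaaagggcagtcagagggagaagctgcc

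Hamp held GGCGCC 109 to 104 bases before its start and TTCTTGGAA 97 to 89 bases before it. Hamp2 held the same TTCTTGGAA 94 to 86 bases before its start. At the GGCGCC position the Hamp2 sequence carried the substitution G4A, counted from 1 at the first base of the motif with the Hamp base first. Over the 250 bases before their starts, Hamp and Hamp2 were 89.7% identical, and Ahsg and Fetub 43.6%. CTGTTTGCAAG lay 80 to 70 bases before the start of Ahsg and 43 to 33 before that of Fetub, and it includes a match to the forkhead motif TGTTTNC. Searched on both strands over the 250 bases before the start, GGCGCC occurred in 9.59% of 32851 annotated mouse promoters, TTCNNNGAA in 7.02% and TGTTTNC in 17.8%. The shared fetuin run occurred in 13 promoters, 0.0396% of them. Rbp4 also held a match to TGTTTNC, on the opposite strand, 241 to 235 bases before its start. TGTTTNC and the shared run were chosen after the sequences were seen, and all these matches describe letters only. Of the 8 listed genes and Hamp2, 7 were found in the RefSeq promoter table, and Angptl4 and Fgl1 were not.

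Signals are log2 values per probe set, so a difference of 1 is a 2-fold ratio, and levels are not compared between genes because probe sets differ in brightness. Array medians lay between 6.31 and 6.45. Cnot6l itself had 9.11, 10.65 and 8.85 in WT IP, 9.29, 10.63 and 9.46 in KO IP, 9.12, 9.23 and 9.34 in KO input, and 8.44, 9.51 and 9.11 in WT input. It was not lower in the knockout, but neither the labels nor the series text say which part of the gene was deleted, so this signal does not check the genotype labels. All 6 measured hepatocyte markers reached the mean needed for testing, with 14.69 for Alb and 13.72 for Apoa1, and the lowest, Tat, averaged 7.06 and ran between 5.02 and 8.91. Of 7 measured Kupffer cell and macrophage markers, 2 reached it. These were Cd68, a lysosomal protein, at 11.29 and Csf1r at 5.87, while Clec4f, Vsig4 and Marco averaged 5.42, 4.16 and 4.01. Among markers of other liver cells, 2 of 4 for cholangiocytes, 3 of 5 for stellate cells and 2 of 6 for endothelium reached that mean. The brightest were Sox9 (cholangiocyte) at 7.81, Dcn and Reln (stellate cell) at 7.44 and 6.80, and Kdr (endothelium) at 6.61. The dimmest of each set, Krt7, Lrat and Pecam1, averaged 3.86, 3.97 and 4.51. Arrays grouped by replicate number across all 4 groups. The added poly-A control transcripts averaged 4.83 in the inputs of number 1, against 7.96 and 8.14 in those of numbers 2 and 3, and were 4.01 to 5.41 higher in each IP than in its input. The gap between the 3′ and 5′ control probe sets, a sign of RNA quality, was also wider in each IP than in its input, by 0.85 to 1.95 for Gapdh and 1.38 to 1.91 for Actb. The SD of all signals on an array differed by -0.35 to -0.17 between an IP and its input. Hepatocyte markers averaged 11.31, 12.25 and 10.68 on the arrays of numbers 1, 2 and 3. The part of these shifts in the results below was not tested.

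Comparisons were fitted with limma on all 12 arrays. A gene was called where its p-value, adjusted by Benjamini-Hochberg over the 9496 genes, was under 0.05. None of the 8 transcripts passed in any of the 5 comparisons. Specific enrichment, which is the WT IP minus WT input difference less the KO IP minus KO input difference, called 0 of 8 hepatokines, and across all genes it called 0.0105% as higher and 0% as lower. In WT IP against WT input, 0 of 8 were called, against 0.105% of all genes as higher and 0% as lower. In WT IP against KO IP, again 0 of 8 were called, against 0.253% of all genes as higher and 0% as lower. In KO IP against KO input and in KO input against WT input, 0 of 8 hepatokines and 0% of all genes were called. At an unadjusted p under 0.05 the count was also 0 of 8 in each comparison. That threshold took in 1.98% of all genes for specific enrichment, 10.6% for WT IP against WT input, 11% for KO IP against KO input, 5.39% for WT IP against KO IP and 0.0527% for the inputs. For all 8 genes the arrays of the compared groups overlapped in all 4 comparisons of groups. Groups without overlap were found for 15.3% of all genes in WT IP against WT input, 15.4% in KO IP against KO input, 6.79% in WT IP against KO IP and 1.62% in KO input against WT input. The median specific enrichment of the 8 was -0.09, beside 0.05 over all genes, and their median WT IP minus WT input difference was -0.48, beside -0.11.

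**Figure D1:**
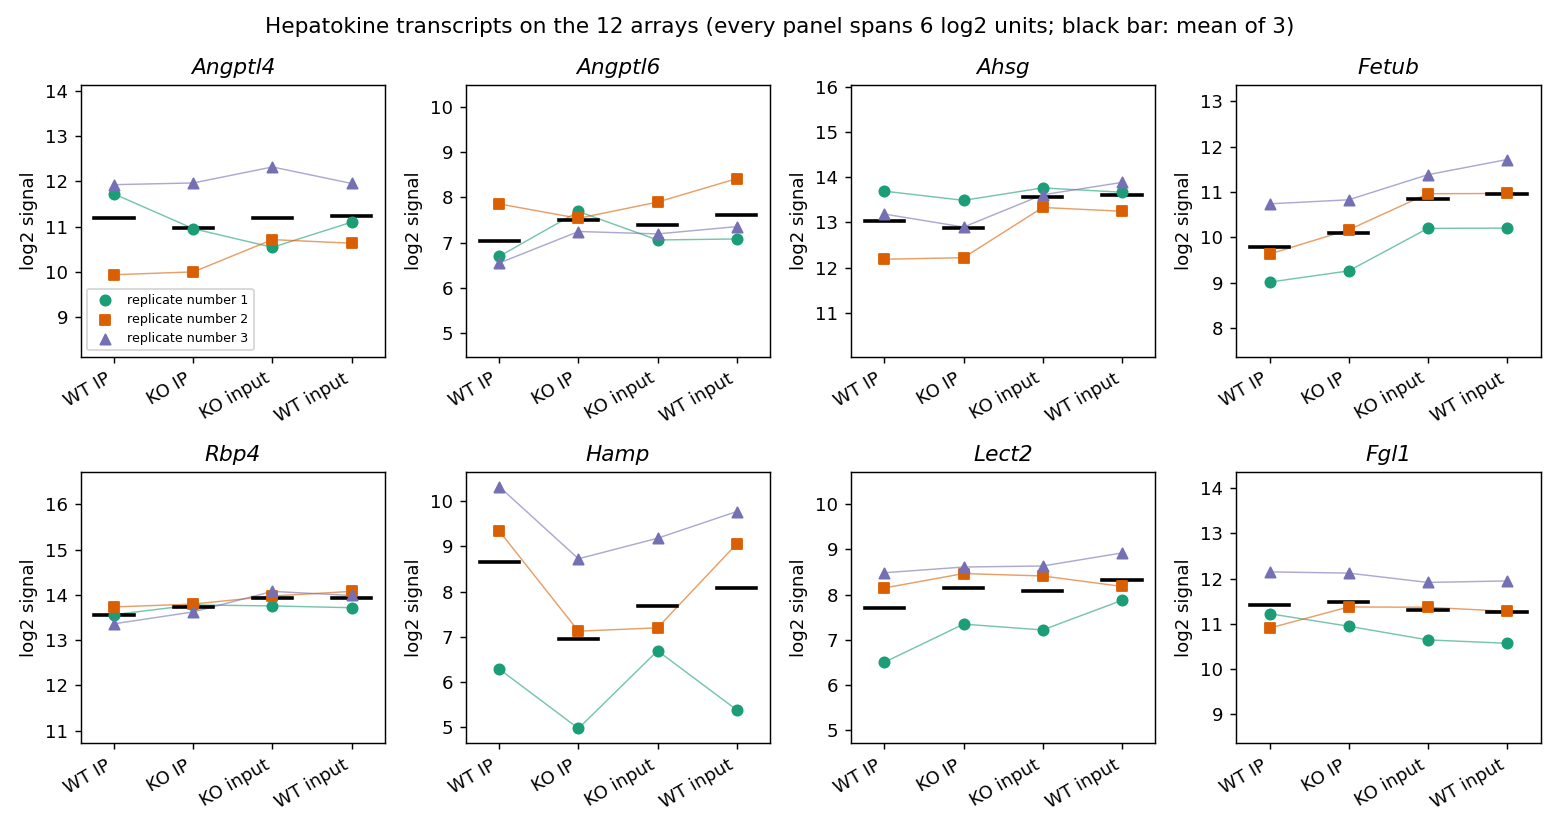
Log2 signal of the 8 hepatokine transcripts on the 12 arrays, 1 panel per gene, with WT IP, KO IP, KO input and WT input along the x axis; symbols and lines mark the replicate numbers and black bars the means of 3. Hamp spans 4.98 to 10.31 and follows the replicate number, whereas Rbp4 stays between 13.36 and 14.08; Fetub is lower in the IPs than in the inputs of the same number.

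Of the 8, Fetub had the lowest mean IP signal relative to input in both genotypes. It had 9.01, 9.63 and 10.74 in WT IP, 9.26, 10.17 and 10.83 in KO IP, 10.20, 10.96 and 11.38 in KO input, and 10.20, 10.97 and 11.72 in WT input. Every IP array was below the input of its own number, in both genotypes, while the groups overlapped because the arrays of number 3 were high throughout. Over all genes, 33% were likewise lower at all 3 numbers in wild type and 35.3% in the knockout. The difference for Fetub was -1.17 ± 0.56 (SE) in wild type, a 2.25-fold lower signal in WT IP than in WT input, with same-number differences of -1.19, -1.34 and -0.98. It was -0.76 ± 0.56 in the knockout, with same-number differences of -0.94, -0.80 and -0.55. Neither passed in the fit without a block (limma adjusted p = 0.497 in wild type and 0.659 in the knockout). When the preparation was added as a replicate block, Fetub passed in wild type (adjusted p = 0.0189), where 4.61% of all genes were called as lower, and missed the threshold in the knockout (adjusted p = 0.0545), where 5.28% were. Specific enrichment of Fetub was -0.41 ± 0.79, with same-number values of -0.25, -0.54 and -0.42. Such values were negative at all 3 numbers for 13.7% of all genes. The 95% interval was -2.12 to 1.31 without the block and -1.04 to 0.23 with it. Both include 0, so the data do not show that the lower recovery depended on genotype.

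Ahsg had 13.69, 12.19 and 13.18 in WT IP, 13.49, 12.22 and 12.90 in KO IP, 13.76, 13.33 and 13.61 in KO input, and 13.67, 13.25 and 13.88 in WT input. Numbers 2 and 3 were lower in the IPs of both genotypes, and number 1 differed by 0.02 in wild type and by -0.27 in the knockout. The mean differences were -0.58 ± 0.42 in wild type and -0.70 ± 0.42 in the knockout (limma adjusted p = 0.660 and 0.576), and specific enrichment was 0.12 ± 0.59. Both differences passed only when the number was blocked separately among IPs and among inputs (adjusted p = 0.0319 in wild type and 0.0196 in the knockout). In that fit 15.2% of all genes were called as lower in wild type and 17.8% in the knockout, and it leaves out how the IP minus input difference varied between preparations. Fetub was the other hepatokine called there, with adjusted p = 0.00520 in wild type and 0.0167 in the knockout. The mean of the 6 hepatocyte markers was also lower in the IPs, at 11.31 in WT IP, 11.08 in KO IP, 11.59 in KO input and 11.66 in WT input. It spanned 10.72 to 12.22 over the arrays of WT IP, 10.38 to 11.88 in KO IP, 10.75 to 12.29 in KO input and 10.84 to 12.61 in WT input. The mean of the 7 Kupffer cell and macrophage markers, of which 2 reached the mean needed for testing, was higher in the IPs. It was 5.85 in WT IP, 5.80 in KO IP, 5.55 in KO input and 5.59 in WT input. In the same order, endothelial markers averaged 5.62, 5.51, 5.26 and 5.53, and stellate cell markers 5.98, 5.85, 5.68 and 5.91. Their IP means were above the inputs of the same genotype, but the arrays overlapped. Endothelial markers spanned 5.26 to 5.85 in WT IP and 4.96 to 5.95 in WT input. Stellate cell markers spanned 5.51 to 6.36 in WT IP and 5.40 to 6.23 in WT input. Cholangiocyte markers, at 5.67, 5.75, 5.74 and 5.87, were lower in WT IP than in WT input. All 6 IPs also had wider 3′ to 5′ control gaps than their inputs. The part of the marker shifts and of these gaps in the fetuin values was not tested.

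Rbp4 had the steadiest signal of the 8. It was 13.56, 13.73 and 13.36 in WT IP, 13.78, 13.80 and 13.62 in KO IP, 13.76, 13.97 and 14.08 in KO input, and 13.72, 14.08 and 13.99 in WT input. The SD over the 12 arrays was 0.22, at percentile 1.67 of all genes tested, so its intervals were the narrowest here. WT IP was below WT input by small amounts at all 3 numbers, as for 33% of all genes, with a mean difference of -0.37 ± 0.25 (limma adjusted p = 0.617). KO input and WT input differed by 0.01 ± 0.25, with a 95% interval of -0.53 to 0.55. Between the inputs of different mice, which are bulk preparations, fewer cells of a type and less RNA per cell cannot be told apart. Specific enrichment was -0.17 ± 0.35, and its 3 same-number values, -0.17, -0.16 and -0.17, were nearly alike.

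Angptl4 had 11.72, 9.94 and 11.93 in WT IP, 10.96, 10.00 and 11.97 in KO IP, 10.55, 10.72 and 12.32 in KO input, and 11.10, 10.64 and 11.96 in WT input. Number 3 was highest in every group, and number 1 alone was higher in IP than in input, in both genotypes. The group means lay within 0.26 of each other, in the order WT input, WT IP, KO input and KO IP, and no neighbours in that order differed beyond their spread. Specific enrichment was 0.18 ± 0.95 (95% interval -1.88 to 2.25, and -0.79 to 1.16 with the replicate block), and KO input minus WT input was -0.04 ± 0.67.

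Angptl6 had 6.70, 7.85 and 6.55 in WT IP, 7.69, 7.54 and 7.24 in KO IP, 7.06, 7.89 and 7.19 in KO input, and 7.08, 8.41 and 7.35 in WT input. WT IP was below WT input at all 3 numbers, as for 33% of all genes, by -0.38, -0.56 and -0.80. KO IP was above KO input at numbers 1 and 3 and below it at number 2. The mean difference was -0.58 ± 0.44 in wild type and 0.11 ± 0.44 in the knockout. Specific enrichment was -0.69 ± 0.62, with same-number values of -1.01, -0.20 and -0.86, and did not pass (limma adjusted p = 1.0, and 0.911 with the replicate block).

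Hamp had the widest range of the 8. It was 6.29, 9.33 and 10.31 in WT IP, 4.98, 7.13 and 8.72 in KO IP, 6.69, 7.20 and 9.18 in KO input, and 5.39, 9.05 and 9.77 in WT input. Within each group, number 1 was lowest and number 3 highest, so every pair of groups overlapped, and at number 1 the KO IP and WT input signals were under the 5.57 set for testing. At the same number, WT IP exceeded KO IP by 1.31, 2.21 and 1.59. Over all genes, 20.1% were higher in WT IP at all 3 numbers. The mean difference for Hamp was 1.70 ± 1.32, a 3.25-fold higher signal in WT IP, and did not pass (limma adjusted p = 0.9997). With the number as a replicate block it came to an adjusted p of 0.0931, in a fit that called 2.33% of all genes as higher in WT IP. The inputs were mixed, with KO input minus WT input at 1.30, -1.85 and -0.59.

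In each genotype the Hamp precipitate lay on one side of its input. Over all genes, 19% were higher in WT IP than in WT input at all 3 numbers. In the knockout, 35.3% were lower in IP than in input at all 3. The share of genes with both patterns was not computed. For Hamp, WT IP minus WT input was 0.90, 0.28 and 0.55, and KO IP minus KO input was -1.71, -0.07 and -0.45. Specific enrichment was accordingly positive at all 3 numbers, with 2.61, 0.35 and 1.003 and a mean of 1.32 ± 1.87 (limma adjusted p = 1.0, and 0.540 with the replicate block). Its 95% interval was -2.76 to 5.41 without the block and 0.32 to 2.33 with it. Number 1 gave the largest value, at signals near the limit for testing, and leaving out the WT input array of number 1 brought the mean to -0.02. Among the 8, 3 had positive same-number values of specific enrichment at all 3 numbers and 4 had negative ones, against 21.4% and 13.7% of all genes.

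**Figure D2:**
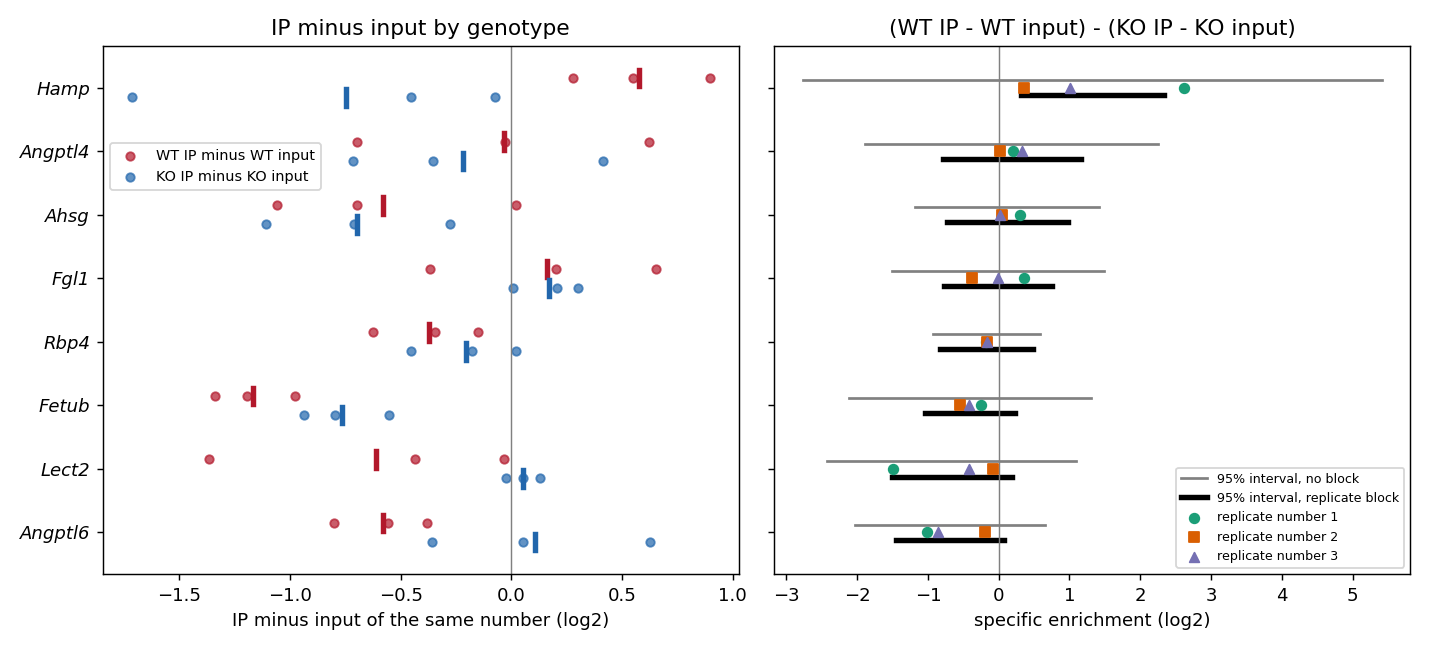
Left, IP minus input of the same replicate number (log2) for each hepatokine, WT above KO, with vertical bars at the means; right, specific enrichment per number with 95% intervals of the fits without and with the replicate block. Hamp is positive at 3 of 3 numbers in wild type and negative at 3 of 3 in the knockout, whereas Fetub is negative throughout; intervals without the block include 0 for all 8 genes.

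The probe set named Hamp2 did not follow Hamp. It had 7.10, 7.86 and 7.88 in WT IP, 4.85, 8.74 and 7.43 in KO IP, 7.05, 7.40 and 6.98 in KO input, and 7.17, 7.01 and 6.84 in WT input. The KO IP array of number 1 was lowest for both hepcidin genes, but the inputs of Hamp2 lay within 6.84 and 7.40, where those of Hamp ran between 5.39 and 9.77. Hamp2 is known as a duplicate of Hamp, signal from one on the probes of the other was not tested, and both values are uncertain.

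Lect2 had 6.51, 8.14 and 8.48 in WT IP, 7.35, 8.46 and 8.61 in KO IP, 7.22, 8.41 and 8.63 in KO input, and 7.87, 8.18 and 8.92 in WT input. WT IP was below WT input at all 3 numbers, as for 33% of all genes, by -1.36, -0.03 and -0.44, and KO IP stayed within 0.13 of KO input. Specific enrichment was -0.66 ± 0.81 (limma adjusted p = 1.0), with -1.49 at number 1 and -0.09 and -0.41 at the others. Without the WT IP array of number 1 it came to -0.06, and WT IP minus WT input to -0.0091.

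Fgl1 had 11.22, 10.91 and 12.15 in WT IP, 10.95, 11.37 and 12.12 in KO IP, 10.65, 11.37 and 11.92 in KO input, and 10.57, 11.28 and 11.95 in WT input. Its specific enrichment was the closest to 0 of the 8, -0.01 ± 0.68. KO IP was above KO input at all 3 numbers, as for 12.8% of all genes, by 0.30, 0.01 and 0.20. KO input minus WT input was 0.04 ± 0.48 with a 95% interval of -1.01 to 1.10.

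Replicate number separated these transcripts more than genotype or precipitation did. In a description that splits each gene's variance over the 12 arrays, number took 86.5% for Fgl1, 81.8% for Angptl4, 79.6% for Lect2 and 78.6% for Hamp, beside a median of 47.5% over all genes tested. Group took 2.66%, 1.70%, 10.7% and 13.1% of the variance of these 4 genes, beside a median of 24.1%. Rbp4 was the exception, with 15.3% for number and 58.4% for group. The pattern was not the same for each gene. Hamp averaged 5.84, 8.18 and 9.49 on the arrays of numbers 1, 2 and 3, and Fetub, Lect2 and Fgl1 had the same order. Ahsg was lowest at number 2 (12.75) and Angptl6 highest there (7.92). The SD of Hamp over the 12 arrays, 1.78, was at percentile 99.6 of all genes tested.

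**Figure D3:**
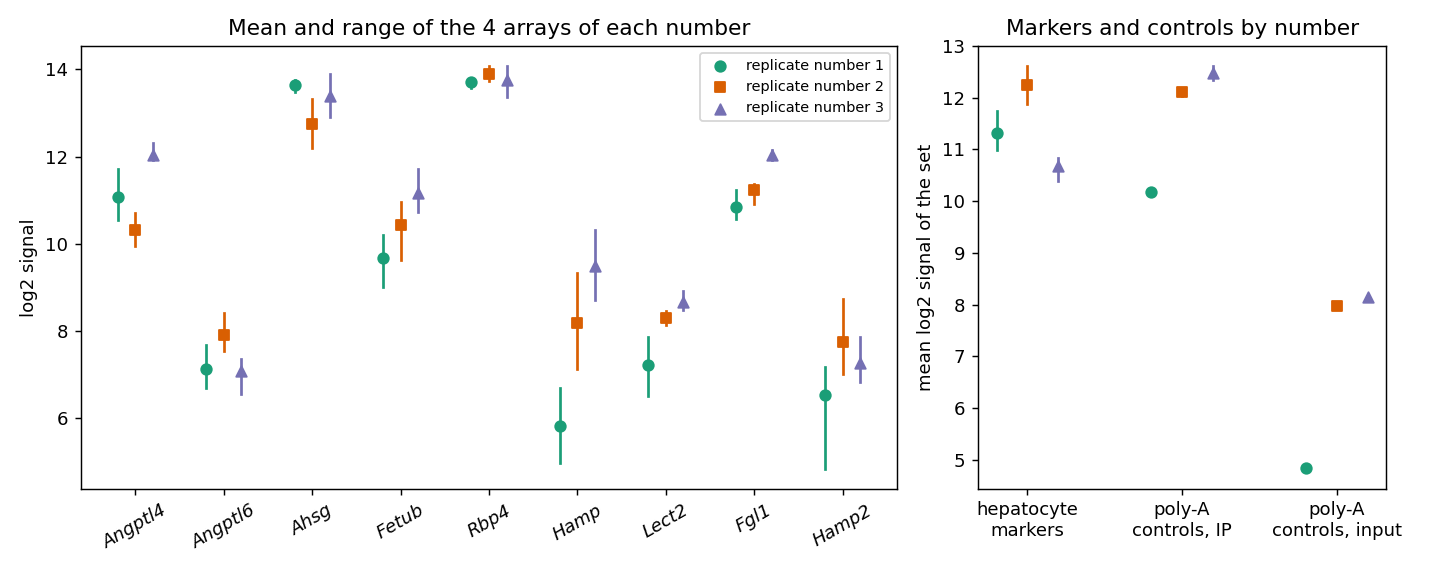
Left, mean (symbol) and range (line) of the 4 arrays of each replicate number for the 8 hepatokines and Hamp2, in log2 signal; right, the means over the hepatocyte markers and over the poly-A control probe sets, for IPs and inputs. Hamp averages 5.84, 8.18 and 9.49 by number, and the poly-A controls of number 1 lie below those of numbers 2 and 3 in both fractions.

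Between the members, the signals of Fetub and Lect2 were most alike over the 12 arrays (Pearson r = 0.83), followed by Fgl1 with Hamp (0.72) and Angptl6 with Rbp4 (0.69). Ahsg and Fetub, the neighbours with a shared promoter run, had r = 0.20. The genes whose signal was most like that of Hamp over the 12 arrays were Slc39a14 (r = 0.96), which encodes the metal importer ZIP14, P4ha1 (0.95) and Hbegf (0.95). For Fgl1 they were Rer1 (0.97), Smpdl3b (0.95) and Slc41a2 (0.95), and for Angptl4 they were H6pd, Slc39a4 and Mst1 (0.96 each). Fetub was most like Abcc3, Fkbp11 and Serinc3 (0.97 each), Ahsg like Usp19 (0.97), Pnkd (0.96) and Rhoc (0.95), and Lect2 like Fkbp14 (0.96), Dad1 (0.94) and Abcg2 (0.93). For Angptl6 they were C8b (0.90), Slc10a1 (0.90) and Cask (0.89), and for Rbp4 they were Cyp2r1 (0.90), Mtmr4 (0.89) and Anp32a (0.87). These values describe 12 arrays that share replicate numbers and, for an IP and its input, a preparation.

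Of 36 listed genes of hepcidin control and iron handling, 33 were measured and 31 tested. In WT IP against WT input 1 was called higher and 0 lower, beside 0.105% and 0% of all genes. In WT IP against KO IP 1 was again called higher and 0 lower, beside 0.253% and 0%. That gene was Socs3 both times, the STAT3-induced inhibitor of cytokine signalling. The list was drawn up with earlier results of these data known. In WT IP, Socs3 exceeded WT input by 2.80 ± 0.37 (limma adjusted p = 0.0124) and KO IP by 2.20 ± 0.37 (adjusted p = 0.0368). Between KO input and WT input it differed by 0.01. Id2 and Id1, targets of BMP and SMAD signalling like Hamp, had WT IP minus KO IP differences of 2.69 ± 0.62 and 2.49 ± 0.84 (adjusted p = 0.157 and 0.537). Smad7, an inhibitor that the same pathway induces, had 1.19 ± 0.51 (adjusted p = 0.839). KO input minus WT input was negative at all 3 numbers for Id2 and Id1, as for 13% of all genes. Its means were -0.53 ± 0.62 and -0.30 ± 0.84, and the specific enrichments of Id2 and Id1 were 2.16 ± 0.87 and 2.19 ± 1.18. Id2, Id1 and Smad7 were named for the size of their specific enrichment, which includes the WT IP minus KO IP difference. They therefore do not stand for the other BMP and SMAD genes of the list. Socs3 passed against WT input in 9 of 12 fits that left out 1 array, and against KO IP in 1 of 12. With the number as a replicate block, 4 of the 31 were called higher in WT IP than in KO IP, where 2.33% of all genes were, with adjusted p = 0.00121 for Socs3, 0.00157 for Id2 and 0.0127 for Id1. The other one, named after its values were seen, was Hmox1, the heme-degrading enzyme that releases iron (1.23, adjusted p = 0.00348, against 0.9997 without the block). With the preparation as block Hmox1 was called lower in KO IP than in KO input (-1.45, adjusted p = 0.0155). Fth1, the ferritin heavy chain that stores iron, was also named after its values were seen. In that fit it was called lower in WT IP than in WT input (-1.17, adjusted p = 0.0230) and in KO IP than in KO input (-1.07, adjusted p = 0.0321). The same fit called Hfe, a regulator of hepcidin named on the same basis, lower in WT IP than in WT input (-0.86, adjusted p = 0.0440). It called 2 of the 31 as lower in each genotype, against 4.61% of all genes in wild type and 5.28% in the knockout. The median WT IP minus KO IP difference of the list was 0.19, beside 0.04 over all genes. Ferroportin (Slc40a1), which hepcidin binds, had a difference of 0.19 ± 0.32.

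**Figure D4:**
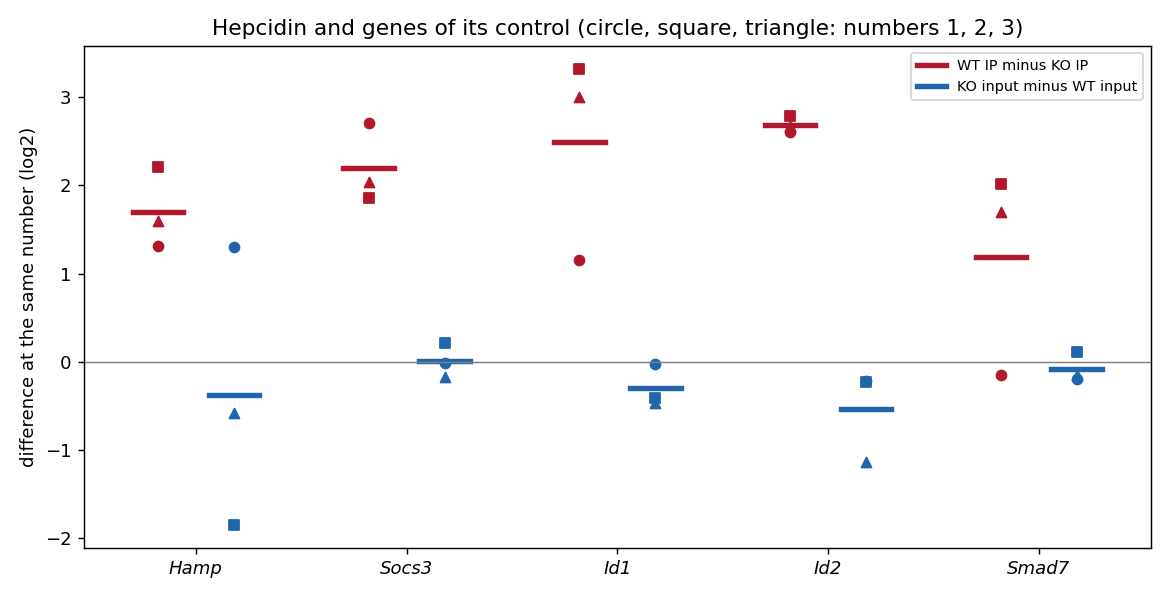
Same-number differences (log2) of Hamp and of Socs3, Id1, Id2 and Smad7, as WT IP minus KO IP and as KO input minus WT input, with horizontal bars at the means and circle, square and triangle for numbers 1, 2 and 3. WT IP minus KO IP is positive for Hamp at 3 of 3 numbers, with a mean of 1.70, while KO input minus WT input runs between -1.85 and 1.30. Id1, Id2 and Smad7 were chosen for the size of their specific enrichment.

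Of 29 other hepatokines and liver hormones, 22 were tested and 1, Fgf21, was called: 10.01, 10.43 and 9.75 in WT IP, 6.48, 7.61 and 6.88 in KO IP, 7.60, 7.41 and 6.98 in KO input, and 7.49, 7.39 and 6.94 in WT input. WT IP exceeded KO IP by 3.07 ± 0.35 (limma adjusted p = 0.00605) and WT input by 2.79 ± 0.35 (adjusted p = 0.00880), and its specific enrichment was 3.13 ± 0.49 (adjusted p = 0.116). The shares of all genes called higher in WT IP were 0.253% against KO IP and 0.105% against WT input. This list too was drawn up with earlier results of these data known. Fgf21 passed against KO IP in 12 of 12 fits that left out 1 array, and against WT input in 9 of 12. Inhbe, which encodes the activin E subunit, had a specific enrichment of 2.33 ± 0.59 (adjusted p = 0.994). WT IP differed from WT input by -0.02 and KO IP from KO input by -2.34, so the value came from the lower knockout precipitate. With the replicate block Inhbe was called lower in KO IP than in KO input (adjusted p = 0.0168), as were 5.28% of all genes. It was called higher in WT IP than in KO IP (2.13, adjusted p = 0.0219), as were 2.33%. Hgfac, the activator of hepatocyte growth factor, was named after its values were seen. With the block it was called lower in WT IP than in WT input (-1.10, adjusted p = 0.0411), as were 4.61% of all genes. Fst (follistatin) and Igfbp1 had specific enrichments of 1.15 ± 1.01 and 0.77 ± 0.47. The list's median was -0.01, beside 0.05 over all genes.

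Among the angiopoietin-like family, the lipases and their regulators, 14 of 20 genes were tested and 0 were called in any comparison. Pdk4, a PPAR target that restrains glucose oxidation, had the largest specific enrichment of that list (1.91 ± 0.62, limma adjusted p = 1.0). With the replicate block its WT IP signal passed against WT input (1.56, adjusted p = 0.0403), where 2.41% of all genes were called as higher. It also passed against KO IP (1.67, adjusted p = 0.0314), where 2.33% were. Gpihbp1, which anchors lipoprotein lipase, had a specific enrichment of 0.67 ± 0.72, Angptl7 0.46 ± 0.46, and Ppara, the receptor that controls Angptl4, -0.30 ± 0.77.

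For the fetuins, 7 of 10 listed genes of the cystatin superfamily and of insulin signalling were tested and 0 were called. Insr, the receptor that fetuin-A inhibits, was lower in WT IP than in WT input by a difference of -1.07 ± 0.31 that did not pass (limma adjusted p = 0.238). It passed with the replicate block (adjusted p = 0.0295), where 4.61% of all genes were called as lower. The cystatin Cst3 had -0.79 ± 0.45, the fetuin-related Hrg -0.78 ± 0.67 and Tlr4 0.63 ± 0.68 in the same comparison. Retinol transport had 3 of 10 genes tested and 0 called, with specific enrichments of -0.07 ± 0.53 for the RBP receptor gene Stra6, -0.03 ± 0.70 for Stra6l and -0.01 ± 0.32 for Ttr. Of 16 receptors and binding partners of the listed proteins, 8 were tested and 0 were called. Met, the receptor that Lect2 binds, had a specific enrichment of 0.48 ± 1.11 and the integrin gene Itgav 0.41 ± 0.80. A list of stress regulators, proprotein convertases and TGF-beta pathway genes had 18 of 22 members tested and 0 called. Its largest specific enrichments were 1.60 ± 0.55 for Ppp1r15a, 1.17 ± 0.70 for Sesn2, 0.92 ± 0.45 for Atf4 and 0.88 ± 0.93 for Egr1. With the replicate block, Ppp1r15a passed in WT IP against WT input (1.23, adjusted p = 0.0240), where 2.41% of all genes were called as higher, and against KO IP (1.55, adjusted p = 0.0160), where 2.33% were. In the other direction, that fit called Mmp14 lower in WT IP than in WT input (-1.18, adjusted p = 0.0430) and Smad2 lower in KO IP than in KO input (-1.09, adjusted p = 0.0399), where 4.61% and 5.28% of all genes were called as lower. Both were named after their values were seen.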

How the data were processed

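RNA was hybridised to 12 Affymetrix Mouse430_2 arrays, 1 sample each. The authors deposited log2 values, 1 per probe set and array, for probe sets of a gene-based chip definition. The sources used here do not give their background correction or normalization. Precision is limited by the number of arrays. The test took genes whose 12-array mean was at or above the 40th percentile of all 16539 probe sets (5.57). Group means were fitted with limma 3.58.1 in R 4.3.3 on all 12 arrays (8 residual degrees of freedom), with two-sided p-values adjusted by Benjamini-Hochberg over 9496 genes. SE is that of the moderated fit. The titles call the replicates biological; whether each is a separate animal is not otherwise stated.

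The series text says that each preparation was split into IP and input, which pairs these arrays. Same-number arrays of different groups also deviated together (18 correlations of 0.453 to 0.936; different numbers -0.711 to 0.0685). The fit with a replicate block took the preparation for IP against input (4 residual degrees of freedom) and the number between genotypes (6).

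All 8 members with a named probe set were named. Of each list, called genes and up to 4 with the largest specific enrichment in size were named, with 3 most alike genes per member. Members and lists were chosen with earlier results of these data known. Promoters were searched with Python 3.11.15 and Biopython 1.88, and figures drawn with matplotlib 3.10.9.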

Additional observations from a re-analysis of the deposited data

Results flagged for a closer look

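Hamp drew attention because it was higher in IP than in input in all 3 wild-type preparations and lower in all 3 knockout preparations. WT IP minus WT input was 0.90, 0.28 and 0.55, and KO IP minus KO input was -1.71, -0.07 and -0.45 (log2). The knockout value of number 2 was thus very small. At number 1 the KO IP signal (4.98) and the WT input signal (5.39) were below the mean signal needed for testing. Taken separately, 19% of all genes were higher at all 3 numbers in wild type and 35.3% lower in the knockout. The share of genes with both patterns was not computed. The difference between the genotypes was 1.32, with a limma adjusted p of 1.0, and of 0.540 with the replicate block, so it failed the correction. The KO input array of number 1, at 6.69, was 1.30 above the WT input array of that number, and the part of this input difference in the value was not tested. None of the groups had 4 or more arrays, so no single array was tested as standing apart from its group.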

How the results depend on the processing

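Changes of normalization, filter and variance moderation left all 8 hepatokines uncalled in all 5 comparisons, as did fits on the compared groups alone and fits without single arrays or without a whole number (chosen after seeing the data). The replicate blocks were the exception. With the replicate block, 1 of 8 was called in WT IP against WT input (Fetub, -1.17, adjusted p = 0.0189; also 1 with quantile normalization and the block, -1.02, adjusted p = 0.0370). With the number blocked within each fraction, 2 were called there and 2 in KO IP against KO input (Ahsg and Fetub). The block changed no other call among the 8.

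Over all genes, calls in WT IP against WT input numbered 10, against 667 with the replicate block, 2189 with the number blocked within each fraction, 16 with quantile normalization, 331 with that and the block, and 1 in the compared groups alone. For KO IP against KO input the counts were 0, against 570, 2117, 33 with quantile normalization and the block, and 52 with no filter. For WT IP against KO IP they were 24, against 233, 380, 176 with quantile normalization and the block, and 0 in the compared groups alone. Specific enrichment called 1, against 2 and 34 with the blocks. Without single arrays or a whole number these counts ran between 0 and 14 for WT IP against WT input, 0 and 2 for KO IP against KO input, 0 and 16 for WT IP against KO IP, and 0 and 4 for specific enrichment. Fgf21 and Socs3 each lost their calls against WT input and against KO IP in the compared groups alone and without any whole number; over all settings the highest adjusted p values were 0.699 against WT input for both, and 0.399 for Fgf21 and 0.632 for Socs3 against KO IP.

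Quantile normalization moved the median KO IP minus KO input difference over all genes to -0.04, against -0.21 as deposited, and turned Angptl4 in WT IP against WT input to 0.14, also with the block. The cause was not tested. Leaving out arrays turned the direction of several values, none of which was called. Specific enrichment then ran between -0.38 and 0.81 for Angptl4, -0.21 and 0.54 for Ahsg, -0.37 and 0.33 for Fgl1, and -0.0168 and 2.50 for Hamp. WT IP against WT input ran between -0.40 and 0.59 for Angptl4, -0.20 and 0.50 for Fgl1, and -0.76 and 1.75 for Hamp. KO IP against KO input ran between -0.71 and 0.35 for Angptl4, -0.15 and 0.36 for Angptl6, -0.38 and 0.45 for Lect2, -0.16 and 0.47 for Fgl1, and -1.64 and 0.23 for Hamp. WT IP against KO IP ran between -0.26 and 0.85 for Angptl4, -0.18 and 0.57 for Ahsg, -0.76 and 0.10 for Fetub, -0.82 and 0.17 for Lect2, and -0.41 and 0.27 for Fgl1. KO input against WT input ran between -0.60 and 0.32 for Angptl4, -0.50 and 0.16 for Angptl6, -0.21 and 0.11 for Ahsg, -0.49 and 0.26 for Fetub, -0.51 and 0.20 for Lect2, -0.10 and 0.10 for Rbp4, -0.30 and 0.38 for Fgl1, and -1.72 and 0.47 for Hamp.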
